A study of Mus musculus with 28 samples.

Results

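Wild-type (WT) mouse liver 6 h after methyl methanesulfonate (MMS), the earliest time after treatment, was measured on 2 of the 28 Affymetrix MG-U74Av2 arrays of the series. The 2 arrays were taken by their label, and the 3 arrays of WT untreated liver were their controls. WT liver taken later after MMS had 3 arrays at 12 h, 2 at 24 h and 2 at 48 h. Aag null liver, called Aag here, lacks the 3-alkyladenine DNA glycosylase encoded by Mpg and had 3 arrays at 6 h after MMS and 4 untreated. The other 9 Aag arrays, 2 at 12 h, 4 at 24 h and 3 at 48 h, entered only the shared estimate of spread. The labels give no dose, route, strain, age, sex or allele, and they do not say that replicates came from separate animals. Each p-value therefore measures a spread between samples, pooled over all groups, which may be technical. The 2 WT 6 h arrays differed more than any other pair in a group, so the pooled spread understates theirs.

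MMS methylates DNA bases, and Aag starts base excision repair by removing bases such as 3-methyladenine. The agent also methylates proteins and thiols. A cell that builds up misfolded protein in the endoplasmic reticulum (ER) starts the unfolded protein response, in which the membrane sensors of the ER raise the transcription of chaperones, disulfide isomerases and the machinery that exports misfolded proteins. Hepatocytes also answer inflammatory cytokines with the acute phase response, in which some secreted plasma proteins rise and others, such as transthyretin, fall. Metallothioneins are small cysteine-rich proteins that bind zinc and copper and are induced in liver by metals, glucocorticoids, cytokines and oxidants.

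Values are log2 signals, and 5487 of 8251 genes were bright enough to be tested. Calls of higher or lower rest on a limma adjusted p under 0.05, and SE is the standard error of a difference from that fit. Hybridization controls, which are spiked transcripts foreign to mouse, had a mean log2 signal of 6.42 in WT 6 h replicate 1, the lowest of all arrays. The mean was 9.22 in WT 6 h replicate 2 and 11.48, 11.65 and 10.87 in the WT untreated arrays. A high set, a gap of 1.03 above all other arrays, held the 3 WT untreated arrays together with Aag untreated replicates 3 and 4. Gapdh, whose 3′ minus 5′ probe set difference grows where RNA or its labelling is less complete, gave a difference of 0.419 and 0.061 in WT 6 h liver and 0.880, 0.857 and 0.584 in WT untreated liver. Time after MMS, array set and any shared handling of the WT untreated arrays cannot be told apart in the comparison of WT 6 h with WT untreated liver.

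The 2 WT 6 h arrays were less alike than any other pair of arrays in a group. Across the 5487 tested genes their correlation was 0.837, against 0.914 to 0.994 for pairs within the other groups. Of the tested genes 1005 (18.3%) lay at least 2-fold apart on the 2 arrays, 703 (12.8%) higher on replicate 1 and 302 (5.5%) higher on replicate 2. The next most unlike pair within a group was Aag 6 h replicates 1 and 2, with 405 genes (7.38%) that far apart. Against the WT untreated mean, replicate 1 had 403 genes (7.34%) at least 2-fold higher and 167 (3.04%) at least 2-fold lower. Replicate 2 leaned the other way, with 150 genes (2.73%) higher and 289 (5.27%) lower. Both arrays were at least 2-fold higher for 32 genes (0.583%) and at least 2-fold lower for 46 (0.838%), and 11 (0.2%) were that far from the untreated mean in opposite directions.

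**Figure D1:**
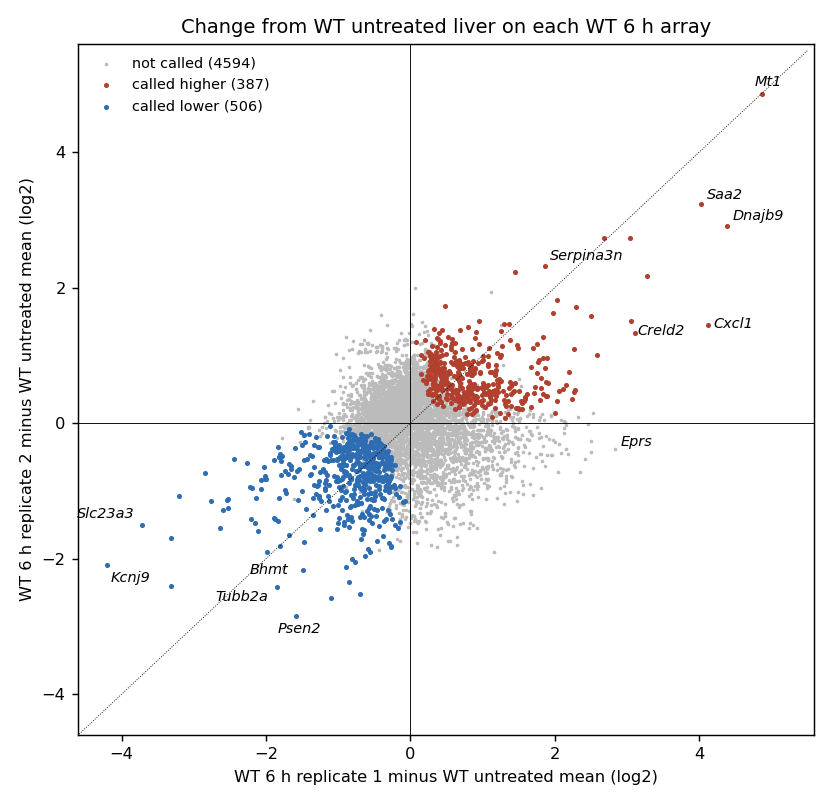
Log2 difference of each gene from the WT untreated mean on WT 6 h replicate 1 (x axis) and replicate 2 (y axis) for the 5487 tested genes, coloured by call. The 387 genes called higher and the 506 called lower lie in opposite corners, while 1005 genes lie at least 2-fold apart on the 2 arrays.

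The genes with the largest differences between the 2 WT 6 h arrays had varied roles. Eprs, a transfer RNA synthetase, was 5.26 in replicate 1 and 2.05 in replicate 2, and the splicing factor Hnrnph1 was 6.45 and 3.39. The proteasome subunit Psmb5 was 7.0 and 4.25. In Aag 6 h liver Eprs was 4.84 on replicate 1, against 2.41 and 2.89 on the other arrays, and the hybridization control mean of that replicate 1 was 6.59. In the opposite direction the iron storage subunit Fth1 was 8.39 in replicate 1 and 10.40 in replicate 2, with 9.13, 9.31 and 9.11 in WT untreated liver. Dnmt1, the maintenance DNA methyltransferase, was 4.08 and 6.19 against 7.05, 7.19 and 6.54, and the large subunit of RNA polymerase II, Polr2a, was 7.27 in replicate 1 and 9.27 in replicate 2. Across the 5487 genes, the difference of the 2 WT 6 h arrays correlated at 0.919 with the difference of Aag 6 h replicate 1 from the mean of replicates 2 and 3, and at 0.738 with that of WT 48 h replicate 2 from replicate 1. These values are descriptions over genes of one platform that share a normalization, and the part of hybridization or RNA quality in them was not tested. Replicate 1 correlated most with Aag 6 h replicate 1 (0.984) and replicate 2 with WT 12 h replicate 1 (0.971).

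The comparison of WT 6 h with WT untreated liver asked what had changed by the earliest time after MMS. It called 893 genes (16.3%), 387 higher (7.05%) and 506 lower (9.22%). With the values as deposited 988 genes (18%) were called, 688 higher (12.5%) and 300 lower (5.47%), where the typical gene was shifted, with a median of 0.11 on the log2 scale against 0.02 after quantile normalization. Groups did not overlap for 1358 genes (24.7%), among them 352 of the 387 genes and 459 of the 506, beside 11.9% of all tested genes that lay wholly above and 12.8% that lay wholly below. Of the genes called higher, 30 were at least 2-fold higher on both WT 6 h arrays, 101 on replicate 1 only, 39 on replicate 2 only and 217 on neither. Their median difference from the untreated mean was 0.789 on replicate 1 and 0.610 on replicate 2. Among the genes called lower the counts were 44, 87, 87 and 288, with medians of -0.720 and -0.702.

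The comparison was repeated with 3 further fits, which held array set as a term, the hybridization control mean as a covariate, or the 2 Aag untreated arrays of the lower set as controls. The last also changes genotype, so treatment and genotype cannot be told apart in it. The array set term left 114 calls (2.08%), 57 higher (1.04%) and 57 lower (1.04%), and 76 of the 893 were among them in the same direction. The covariate gave 290 calls (5.29%), 109 higher (1.99%) and 181 lower (3.3%), 152 of them shared. The Aag untreated arrays gave 42 calls (0.765%), 17 higher (0.31%) and 25 lower (0.456%), 32 of them shared. Made by all 3 fits were 19 of the 893 calls. Without WT 6 h replicate 1 there were 1276 calls (23.3%), 651 higher (11.9%) and 625 lower (11.4%), with 524 of the 893 kept. Without replicate 2 there were 1543 (28.1%), 768 higher (14%) and 775 lower (14.1%), with 622 kept. With limma array weights, which were 0.128 for each WT 6 h array, 0 genes were called, and 323 had an unadjusted p under 0.05. With the spread taken from only the groups compared, 21 genes were called, 12 higher and 9 lower. Called higher in the 3 further fits and with each WT 6 h array left out were 10 genes, Mt1, Mt2, Serpina3n, Orm2, Pdia4, Itih4, Serpina10, Srm, Apoa5 and Gne. Called lower in the same 5 settings were 7 genes, Crip2, Ttr, Tcea3, Mug2, Ethe1, Bhmt and Psen2, and Rdh7 and Lasp1 passed the 3 fits but not the omission of each array. Srm, Apoa5, Gne, Rdh7, Lasp1, Crip2, Mug2 and Ethe1 were singled out after their values were seen.

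**Figure D2:**
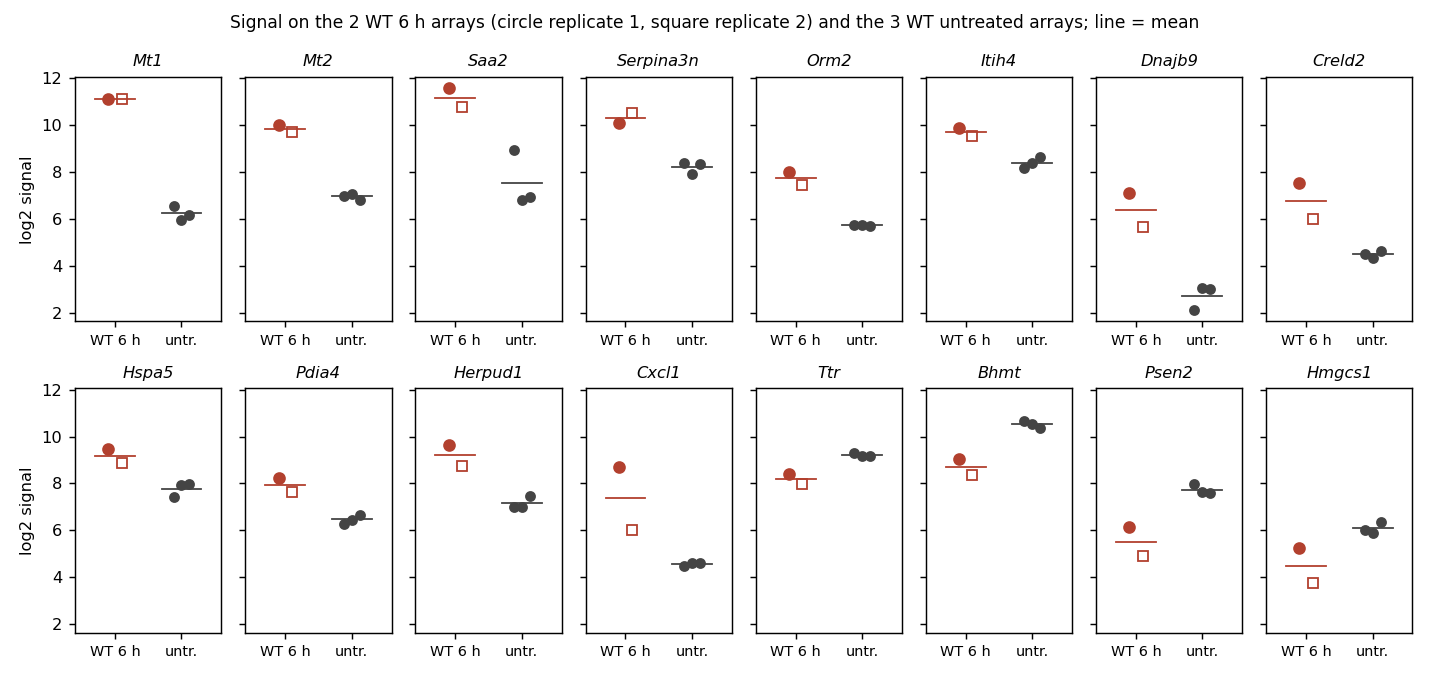
Log2 signal (y axis) of 16 genes on each WT 6 h array (left, circle replicate 1, square replicate 2) and each WT untreated array (right). Mt1 was 11.10 on both WT 6 h arrays, while Cxcl1 was 8.69 on replicate 1 and 6.02 on replicate 2.

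Mpg, the gene of the Aag glycosylase, was dim in WT liver at both states. It was 2.81 and 2.38 at 6 h and 2.82, 2.54 and 2.83 in untreated liver. The difference was -0.14 and was not called in the limma fit without the brightness filter (adjusted p = 0.496). Whether its probes match sequence removed in Aag mice is not known here.

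The metallothionein Mt1 had the largest rise of all genes called at 6 h. It was 11.10 on both WT 6 h arrays, against 6.56, 5.95 and 6.18 in untreated liver. The values as deposited were 11.33 and 10.80 against 6.51, 5.81 and 6.14, and Mt1 held rank 23 in brightness on both treated arrays, which gave it the same value after quantile normalization. The change was 4.87 on the log2 scale (SE 0.69, limma adjusted p = 0.000112), and it lay between 4.63 and 6.96 in the 3 further fits. Mt2, its neighbour, was 10.01 and 9.70 against 6.99, 7.08 and 6.82, a change of 2.89 (SE 0.71, limma adjusted p = 0.00826). All treated arrays lay above all untreated ones for both genes. Of 6 tested genes of the metallothionein and zinc list, 3 were called higher and 0 lower, beside 7.05% and 9.22% of all tested genes, and the third was the zinc importer Slc39a4 (0.67, adjusted p = 0.0291), whose other probe set had the opposite sign. Mt3, the metallothionein of brain, Mt4 of squamous epithelium and Mtf1, the metal-responsive transcription factor, were not called. Mt1 was 10.67, 10.78 and 9.57 at 12 h, 9.48 and 10.08 at 24 h and 7.97 and 7.97 at 48 h in WT liver, so it was highest at 6 h and lowest at 48 h among the treated WT groups. In Aag liver Mt1 was 10.40, 11.58 and 9.63 at 6 h, against 6.62, 6.31, 9.02 and 8.10 untreated.

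The promoters of Mt1 and Mt2 are shown because these genes were the largest rises among those called in the 3 further fits and with each WT 6 h array left out. Both come from RefSeq on build GRCm38.p6, from 250 bases before to 50 after the start of the gene, at chr8:94178839-94179138 for Mt1 and chr8:94172368-94172667 for Mt2, both on the plus strand. Capitals mark the metal response element core, searched on both strands as TGCACNC or TGCGCNC, where a match is a description and not a site. Mt1 held 3 matches and Mt2 held 4. At least 1 match was found in 25.7% of 32851 promoters of this length, and 3 or more in 1.97%.
Mt1: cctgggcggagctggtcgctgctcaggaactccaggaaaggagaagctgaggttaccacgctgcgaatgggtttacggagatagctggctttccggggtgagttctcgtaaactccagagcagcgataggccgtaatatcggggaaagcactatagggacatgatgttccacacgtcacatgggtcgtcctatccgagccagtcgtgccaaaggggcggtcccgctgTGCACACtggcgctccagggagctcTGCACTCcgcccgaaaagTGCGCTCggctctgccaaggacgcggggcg
Mt2: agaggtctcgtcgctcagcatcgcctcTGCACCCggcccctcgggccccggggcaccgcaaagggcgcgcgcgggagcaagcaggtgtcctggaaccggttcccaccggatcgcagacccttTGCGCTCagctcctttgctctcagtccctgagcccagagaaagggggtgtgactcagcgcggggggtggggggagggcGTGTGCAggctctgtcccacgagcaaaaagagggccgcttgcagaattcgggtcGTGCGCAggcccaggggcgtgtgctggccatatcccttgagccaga

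Acute phase genes were among the large rises. Of 22 tested genes of this list 9 were called higher and 1 lower, beside 7.05% and 9.22% of all genes, and their median change was 0.58 against 0.02 for all genes. On single arrays the median was 1.00 in replicate 1 and 0.40 in replicate 2. The genes called higher numbered 3 with array set as a term (median 0.50) and 4 with the hybridization control mean as a covariate (0.58). Against the Aag untreated arrays of the lower set they numbered 3 (0.56). Serpina3n and Orm2 kept their calls in all 3 of these fits, and Saa2 did not. The serum amyloid gene Saa2 was 11.58 and 10.78, against 8.92, 6.79 and 6.93 in untreated liver, where replicate 1 stood above the others. Its change of 3.63 had an SE of 0.93 (limma adjusted p = 0.0106). Serpina3n, a serine protease inhibitor, was 10.08 and 10.53 against 8.41, 7.90 and 8.33, a change of 2.09 (SE 0.27, limma adjusted p = 5.24e-05). It was higher on replicate 2 than on replicate 1, unlike most of the list. Orm2, an orosomucoid that carries drugs and lipids in plasma, was 8.02 and 7.44 against 5.75, 5.72 and 5.68 (2.01, SE 0.34).

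Other acute phase genes followed the same order of groups. Lrg1, a leucine-rich glycoprotein, was 10.28 and 10.08 at 6 h against 8.64, 7.91 and 8.22 untreated (1.93, SE 0.37, limma adjusted p = 0.00142). Itih4, a chain of the inter-alpha-trypsin inhibitor family, was 9.88 and 9.56 against 8.16, 8.37 and 8.66 (1.32, SE 0.20), and haptoglobin, Hp, which binds free hemoglobin, was 11.77 and 11.53 against 10.61, 10.40 and 10.53 (1.14, SE 0.21). The treated and untreated arrays did not overlap for any of these 3 genes, of which only Itih4 kept its call in all 3 further fits. Saa4 was 8.20 and 7.10 against 4.87, 5.04 and 4.84 (2.73, SE 0.48), but it was 6.86 and 6.68 in the Aag untreated arrays of the lower set and 4.74 and 5.38 in those of the high set, and with array set as a term its change was 1.02 (adjusted p = 0.372). The remaining genes called higher were Saa3 (1.08) and the endotoxin-binding Lbp (0.66). The copper carrier ceruloplasmin, Cp, was called lower at -0.86 (adjusted p = 0.017), but its WT 6 h arrays lay at 8.22 and 6.85 and overlapped the untreated range of 8.21 to 8.50. Fibrinogen chains Fga (0.34), Fgb (0.40) and Fgg (0.32) and the cytokine signal inhibitor Socs3 (0.04) were not called.

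Inflammatory signals above the acute phase genes were fewer. Cxcl1, a neutrophil chemokine, was 8.69 in replicate 1 and 6.02 in replicate 2, against 4.49, 4.62 and 4.61 in untreated liver. Both arrays lay above all untreated arrays, and the call at 2.79 (SE 0.78, adjusted p = 0.0177) ended without replicate 1, where the change was 1.45 (adjusted p = 0.231). In Aag 6 h liver Cxcl1 was 5.47, 9.27 and 4.91, highest on replicate 2. Of 15 chemokine, cytokine and NF-kappaB genes, 3 were called higher and 0 lower, beside 7.05% and 9.22% of all tested genes, the others being the interleukin receptors Il1r1 (0.79, adjusted p = 0.0409) and Il6ra (0.62, adjusted p = 0.013). Neutrophil markers gave no call among 7 tested, and their mean signal was 4.67 and 5.33 at 6 h against 5.0 to 5.2 untreated.

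The unfolded protein response had rises of unequal size on the 2 arrays. Of its 25 tested genes 10 were called higher and 0 lower, beside 7.05% and 9.22% of all tested genes, with a median change of 0.74 against 0.02 for all genes. The median was 1.41 on replicate 1 and 0.31 on replicate 2. Dnajb9, an ER co-chaperone, was 7.11 and 5.64 at 6 h, against 2.10, 3.07 and 3.00 untreated (3.65, SE 0.60, limma adjusted p = 0.000405). Herpud1, part of the export machinery for misfolded proteins, was 9.66 and 8.73 against 6.97, 7.0 and 7.47 (2.05, SE 0.34). The ER protein Creld2 was 7.55 and 5.99 against 4.48, 4.34 and 4.64 (2.28, SE 0.40, limma adjusted p = 0.00072). Each of these genes had both treated arrays above all untreated ones, with replicate 1 the higher.

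Chaperones and folding enzymes of the ER lumen were among the other genes called. Pdia4, a protein disulfide isomerase, was 8.22 and 7.63 at 6 h and 6.29, 6.42 and 6.67 untreated (1.47, SE 0.20, limma adjusted p = 0.000101). Hspa5, the major ER chaperone also called BiP, was 9.46 and 8.87 against 7.40, 7.92 and 7.96 (1.40, SE 0.35), and Manf, an ER protein that stressed cells secrete, was 9.13 and 8.20 against 6.80, 7.54 and 7.34 (1.44, SE 0.42, limma adjusted p = 0.0222). Hsp90b1, the ER form of the HSP90 chaperone, was 9.72 and 9.29 against 8.34, 8.33 and 8.97 (0.96, SE 0.24). Treated arrays lay above untreated arrays for all of these. Sel1l (1.39), Ssr1 (1.16) and Txndc5 (0.74) completed the 10 genes called. Canx (0.26), Derl1 (0.14), Atf6 (0.05) and Xbp1 (0.74) were not called, and Xbp1 was 7.76 on replicate 1 and 5.35 on replicate 2.

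With the hybridization control mean as a covariate the median of the list was -0.05 and 1 gene was called higher, and with array set as a term it was 0.85 with 2 genes called higher. Against the Aag untreated arrays of the lower set the median was 0.57 and 3 genes were called higher. Without replicate 1 the main model called 6 members higher and 1 lower with a median of 0.31, and without replicate 2 it called 17 higher and 0 lower with a median of 1.41.

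**Figure D3:**
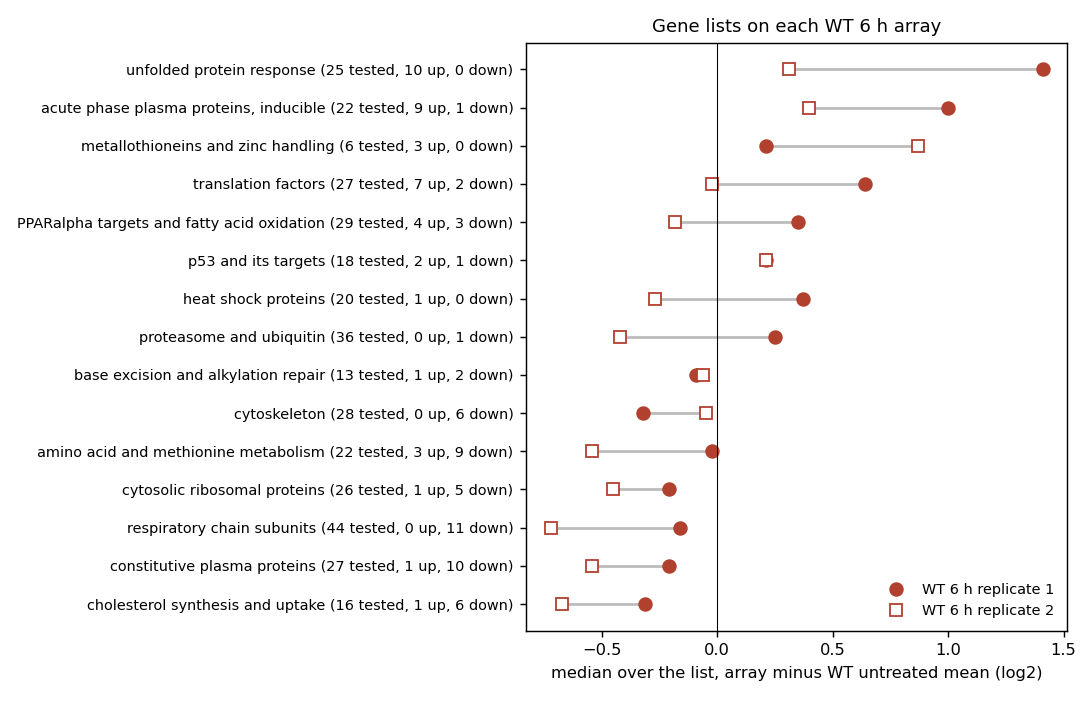
Median log2 difference from the WT untreated mean (x axis) over the tested genes of 15 lists (y axis) on WT 6 h replicate 1 (circle) and replicate 2 (square). The unfolded protein response lies at 1.41 and 0.31, the respiratory chain at -0.16 and -0.72 and the proteasome at 0.25 and -0.42.

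Promoters of 4 genes of this list are shown because each was called higher and held an element named for ER stress. They come from RefSeq on build GRCm38.p6, at chr2:34771840-34772139 on the plus strand for Hspa5, chr15:88819396-88819695 on the plus strand for Creld2, chr10:86705395-86705694 on the minus strand for Hsp90b1 and chr8:94386179-94386478 on the plus strand for Herpud1. Capitals mark the ER stress element, CCAAT and CCACG with 9 bases between, in the first 3 and the ER stress element II, ATTGG and CCACG with 1 base between, in Herpud1, searched on both strands. The first motif was found in 39 of 32851 promoters (0.119%) and the second in 12 (0.0365%). Hsp90b1 held 2 matches and the other genes 1 each. Of 28 list genes on the array 24 had a promoter in the table, of which 8 held the first motif, 2 the second and 1, Txndc5, the core TGACGTGG of the unfolded protein response element, found in 222 promoters (0.676%). Dnajc3, Pdia6, Calr, Canx, Ero1b and Dnajb11 held the first or second motif too and were not called higher. Dnajb9, Pdia4, Sel1l and Ssr1 were called higher and were not among the genes with a match. A match describes these letters only, and the promoter of Manf was missing.
Hspa5: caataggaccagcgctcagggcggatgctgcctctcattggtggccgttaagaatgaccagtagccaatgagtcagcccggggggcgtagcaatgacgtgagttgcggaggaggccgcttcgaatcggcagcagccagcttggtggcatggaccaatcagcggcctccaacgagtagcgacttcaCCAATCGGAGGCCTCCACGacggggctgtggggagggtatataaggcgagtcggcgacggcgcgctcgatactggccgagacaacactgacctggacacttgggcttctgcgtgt
Creld2: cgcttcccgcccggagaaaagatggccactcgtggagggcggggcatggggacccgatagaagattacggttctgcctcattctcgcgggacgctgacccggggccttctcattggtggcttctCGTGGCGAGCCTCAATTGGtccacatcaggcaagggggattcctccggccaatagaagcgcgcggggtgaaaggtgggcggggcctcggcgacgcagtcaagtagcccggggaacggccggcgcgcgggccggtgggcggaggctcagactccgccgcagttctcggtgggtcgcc
Hsp90b1: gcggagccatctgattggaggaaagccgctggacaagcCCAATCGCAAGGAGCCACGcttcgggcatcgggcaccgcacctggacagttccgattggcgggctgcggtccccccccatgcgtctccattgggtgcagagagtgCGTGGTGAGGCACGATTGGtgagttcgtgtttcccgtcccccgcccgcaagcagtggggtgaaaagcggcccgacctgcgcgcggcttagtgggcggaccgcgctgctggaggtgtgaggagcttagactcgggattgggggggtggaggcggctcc
Herpud1: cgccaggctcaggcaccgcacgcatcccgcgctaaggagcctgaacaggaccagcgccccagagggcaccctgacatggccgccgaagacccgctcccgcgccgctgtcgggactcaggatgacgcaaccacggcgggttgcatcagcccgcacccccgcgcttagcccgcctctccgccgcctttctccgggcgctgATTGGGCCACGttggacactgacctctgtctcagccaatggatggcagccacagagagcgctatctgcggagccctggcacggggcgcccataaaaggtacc

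Other stress programs are read against 7.05% of all tested genes called higher and 9.22% lower. Ddit3, the transcription factor CHOP, was 5.08 and 4.71 at 6 h against 3.70, 3.90 and 4.25 untreated (0.94, SE 0.17, limma adjusted p = 0.000756), with no overlap. Atf4 was 7.61 and 7.96 against 7.32, 7.61 and 7.58, a difference of 0.28 that was not called, and of 19 genes of the ATF4 program 1 was called higher and 1, Atf5, lower (-0.83, adjusted p = 0.019). Atf3 was 3.88 and 5.16 against 4.64, 5.75 and 4.81 (-0.55, adjusted p = 0.202), with the opposite sign on 2 of its 3 probe sets. The cytosolic heat shock proteins had 1 of 20 genes called higher and 0 lower. Heme oxygenase, Hmox1, was 6.65 and 6.67 against 6.38, 6.38 and 6.34, above the untreated arrays but not called (0.29, adjusted p = 0.179). Of 29 NRF2 targets 4 were called higher and 3 lower. Among those higher, the glutathione synthesis subunit Gclm was 6.82 and 6.26 against 5.69, 5.59 and 5.75 (0.86, adjusted p = 0.000942). Gclm was 6.46 and 6.54 in the Aag untreated arrays of the lower set. Neither Gclm nor Ddit3 kept its call in all 3 further fits.

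Targets of p53, the main transcription factor of the DNA damage response, gave 3 calls. Of 18 tested genes 2 were called higher and 1 lower, beside 7.05% and 9.22% of all tested genes, with a median change of 0.18 against 0.02 for all genes. Cdkn1a, the cell cycle inhibitor p21, was 6.07 and 6.52 at 6 h against 6.13, 6.66 and 6.80 untreated, a difference of -0.23 that was not called (limma adjusted p = 0.431). Mdm2, the ligase that degrades p53, was 4.58 and 3.81 against 4.07, 3.74 and 3.80 (0.32, adjusted p = 0.295). Groups overlapped for both. Cyclin G2, Ccng2, was 3.68 and 3.15 against 4.63, 4.81 and 4.37 (-1.19, adjusted p = 0.000942), without overlap, and the epoxide hydrolase Ephx1 (0.76) and the kinase Plk3 (0.72) were the genes called higher. Ccng1 was too dim to be tested, and Bax, Gdf15 and Saa1 had no probe set with a single symbol.

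Genes of base excision repair had 1 of 13 called higher and 2 lower, beside 7.05% and 9.22% of all tested genes, with a median of -0.08. The uracil glycosylase Ung was 6.12 and 7.16 at 6 h against 7.84, 8.4 and 7.34 untreated (-1.22, adjusted p = 0.0059), and its other probe set moved the opposite way. Parp1, which senses strand breaks, was 4.00 and 4.70 against 4.99, 5.39 and 4.75 (-0.69, SE 0.20, limma adjusted p = 0.0217), while Parp2 was 4.82 and 4.03 against 4.02, 3.76 and 3.31 (0.73, limma adjusted p = 0.0402). The scaffold Xrcc1 (-0.64, adjusted p = 0.0809) and the endonuclease Apex1 (0.26, adjusted p = 0.516) were not called. Mgmt, which repairs O-methylated guanine directly, and the polymerase Polb were dim, and without the brightness filter their differences were -0.05 (adjusted p = 0.85) and -0.01 (adjusted p = 0.966). Among 15 other repair and checkpoint genes 2 were called higher and 1 lower, against the same shares of all genes. The single-strand binding subunit Rpa2 was 3.85 and 4.53 against 5.97, 6.30 and 5.73 (-1.81, adjusted p = 9.34e-05). Rad1 of the checkpoint clamp was 4.76 and 4.37 against 3.74, 3.40 and 3.6 (0.99, adjusted p = 0.000622). In the Aag untreated arrays of the lower set Rpa2 was 4.20 and 4.91 and Rad1 was 4.10 and 4.24. None of the repair genes called here kept its call in all 3 further fits.

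Plasma proteins made by liver at rest had more genes lower than higher. Of 27 tested genes 1 was called higher and 10 lower, beside 7.05% and 9.22% of all genes, with a median of -0.43. The median was -0.21 on replicate 1 and -0.54 on replicate 2. The genes called lower numbered 2 with array set as a term and 6 with the hybridization control mean as a covariate. Against the Aag untreated arrays of the lower set 1 gene was called lower. Transthyretin, Ttr, the carrier of thyroid hormone and retinol binding protein, was 8.38 and 7.98 at 6 h against 9.29, 9.16 and 9.18 untreated (-1.03, limma adjusted p = 1.66e-05). Its partner Rbp4 was 9.90 and 9.73 against 10.78, 10.55 and 10.30 (-0.73, limma adjusted p = 0.00466), and protein C, Proc, an anticoagulant protease, was 8.60 and 8.42 against 9.34, 9.04 and 9.60 (-0.82, limma adjusted p = 0.00049). For these 3 genes every treated array lay below every untreated one. Coagulation factor X, F10, was called lower (-0.87) and factor VII, F7, higher (0.60). Mug2, a murinoglobulin that traps proteases in plasma, was 8.60 and 8.4 against 9.63, 9.47 and 9.71 (-1.10, limma adjusted p = 0.000167).

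Amino acid and methyl group metabolism was lower for many of its enzymes. Of 22 tested genes 3 were called higher and 9 lower, beside 7.05% and 9.22% of all tested genes, with a median of -0.23, which was -0.02 on replicate 1 and -0.54 on replicate 2. Bhmt, which remakes methionine from betaine and homocysteine, was 9.04 and 8.36 at 6 h against 10.67, 10.53 and 10.38 untreated (-1.83, limma adjusted p = 6.62e-05), while its dimmer probe set had the opposite sign. Dmgdh, the next enzyme of betaine breakdown, was 7.88 and 7.88 against 9.02, 8.67 and 8.75 (-0.93, limma adjusted p = 0.000345). Hgd of tyrosine breakdown was 8.54 and 7.99 against 9.48, 9.43 and 9.31 (-1.14), and Gamt, which makes creatine, was 6.75 and 6.73 against 7.79, 7.48 and 7.56 (-0.87), with the opposite sign on its other probe set. None of the 4 genes overlapped between groups. Glul, the glutamine synthetase, was called higher (0.90), again with a probe set of opposite sign. The genes called lower numbered 3 with array set as a term, 8 with the hybridization control mean as a covariate and 2 against the Aag untreated arrays of the lower set.

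Cholesterol synthesis and respiration also had more genes lower than higher. Of 16 tested genes of cholesterol synthesis and uptake 1 was called higher and 6 lower, beside 7.05% and 9.22% of all tested genes, with a median of -0.43. Hmgcs1, which makes the substrate of the rate-limiting reductase, was 5.23 and 3.75 at 6 h against 6.03, 5.90 and 6.33 untreated (-1.60, SE 0.46, limma adjusted p = 0.0213), and Fdps was 7.64 and 8.06 against 9.05, 9.52 and 9.03 (-1.35, limma adjusted p = 0.00951). For both genes the treated arrays lay below the untreated ones, and 1 of 4 probe sets of Fdps had the opposite sign. None of these genes was called with array set as a term. Of 44 respiratory chain subunits 0 were called higher and 11 lower, against the same shares of all genes, with a median of -0.41 that came to -0.16 on replicate 1 and -0.72 on replicate 2. Cyc1, a subunit of complex III, was 9.18 and 8.35 against 9.68, 9.72 and 9.77 (-0.96, adjusted p = 0.000732), with the opposite sign on its other probe set. With array set as a term 1 subunit was called lower, and without replicate 2 the count was 9 against 25 without replicate 1. Of 26 cytosolic ribosomal proteins 1 was called higher and 5 lower, and 0 in either direction with array set as a term.

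Regulators and fuel genes had calls in both directions, beside 7.05% of all tested genes called higher and 9.22% lower. Of 29 PPARalpha targets and fatty acid oxidation genes 4 were called higher and 3 lower. Of 13 clock genes 2 were called higher and 1 lower, and of 18 genes of glucose output and fasting 2 higher and 3 lower. With array set as a term 5, 4 and 0 were called higher, and 0, 1 and 0 against the Aag untreated arrays of the lower set. Neither fit called any of them lower. Hnf4a, a transcription factor that defines hepatocytes, was 7.09 and 7.19 at 6 h against 5.75, 5.76 and 5.98 untreated (1.31, adjusted p = 0.00366). It was 6.76 and 7.02 in the Aag untreated arrays of the lower set and 5.67 and 5.64 in those of the high set, and the difference from the lower set was 0.25 (adjusted p = 0.759). The clock repressor Nr1d2 was 6.00 and 4.21 against 3.01, 2.92 and 2.70 (2.23, adjusted p = 0.000745), and Cry1 was called lower (-1.05) but differed by 0.13 from the Aag untreated arrays of the lower set. The hour of day at which livers were taken is not given by the labels. Cpt1a, which admits fatty acids to mitochondria, was 8.70 and 8.31 against 7.08, 6.94 and 7.60 (1.30, SE 0.24), and the lipid droplet protein Plin2 was 9.95 and 10.16 against 9.31, 9.45 and 9.48 (0.64, limma adjusted p = 0.0201). The catalytic subunit of glucose-6-phosphatase, G6pc, was 7.69 and 8.92 against 9.40, 9.95 and 10.28 (-1.58, adjusted p = 0.0151), but against the Aag untreated arrays of the lower set its difference was 0.45. Zbtb16, a glucocorticoid target, was 4.67 and 4.88 against 3.81, 3.79 and 4.11 (0.87, adjusted p = 0.000942), and 5 of 24 glucocorticoid targets were called higher and 2 lower, beside 7.05% and 9.22% of all tested genes. Against the Aag untreated arrays of the lower set the differences were 0.12 for Zbtb16, 0.47 for Cpt1a and 0.90 for Nr1d2, and none was called.

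Other genes were called in the 3 further fits and with each WT 6 h array left out. Srm, the spermidine synthase, was 6.21 and 6.07 at 6 h against 4.68, 5.07 and 5.04 untreated (1.21, limma adjusted p = 0.000192). Apoa5, an apolipoprotein that lowers plasma triglyceride, was 10.71 and 10.38 against 9.24, 9.63 and 9.69 (1.02, limma adjusted p = 0.00131), and Gne, which starts the synthesis of sialic acid, was 7.47 and 7.60 against 6.70, 6.58 and 7.07 (0.75, limma adjusted p = 0.00254). In each the 2 treated arrays lay close together and above all untreated arrays. On the lower side, Psen2, the catalytic subunit of gamma-secretase, was 6.14 and 4.88 against 7.96, 7.63 and 7.59 (-2.22, limma adjusted p = 3.83e-05). Ethe1, a mitochondrial enzyme of sulfide oxidation, was 6.96 and 6.84 against 8.46, 7.99 and 7.94 (-1.23, limma adjusted p = 0.00112), and the LIM-domain gene Crip2 was 4.42 and 4.60 against 5.67, 5.19 and 5.49 (-0.94, limma adjusted p = 0.00062). These 3 genes did not overlap between groups.

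Several of the largest changes were smaller against the Aag untreated arrays of the lower set, or had a probe set of opposite sign. Those arrays differ from WT 6 h liver in genotype too. Mrm3, a mitochondrial RNA methyltransferase, was 4.90 and 4.96 at 6 h against 2.66, 1.91 and 2.09 untreated (2.71), and its difference was 0.11 against the Aag untreated arrays of the lower set. Tubb2a, a beta-tubulin, was 5.52 and 4.95 against 7.42, 7.25 and 7.45 (-2.14, limma adjusted p = 0.000117). Against those Aag arrays its difference was -0.82 (adjusted p = 0.159), and its other probe set had the opposite sign. Kcnj9 (-3.15), Odf2 (-2.86), Slc23a3 (-2.61), Gpcpd1 (-1.95), Penk (-1.94) and Mgst2 (-1.89) each had another probe set of opposite sign. Of the 15 largest falls only Psen2 was also called against the Aag untreated arrays of the lower set.

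Cell type markers were described by their calls, with 7.05% of all tested genes called higher and 9.22% lower. Of 11 hepatocyte markers 1 was called higher, Hnf4a, and 2 lower, Ttr and G6pc, and their mean signal was 9.54 on both WT 6 h arrays against 9.68 to 9.92 untreated. Of 12 macrophage markers 1 was called higher and 1 lower, of 8 endothelial markers 1 lower, of 11 stellate cell markers 2 lower and of 7 lymphocyte markers 0. Of 9 erythroid markers 0 were called higher and 2 lower. Their median was -0.12, with -0.23 on replicate 1 and -0.01 on replicate 2. The hemoglobin gene Hba-a1 was 7.54 and 7.58 at 6 h against 10.14, 8.77 and 8.78 untreated (-1.66, adjusted p = 0.000807). Hbb-b2 was the other gene called lower (-1.61, adjusted p = 0.0333). In whole liver, fewer cells of a type and less RNA per cell cannot be told apart. The part of blood content in the other changes was not tested.

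The comparison of WT 6 h with WT liver at 12, 24 and 48 h after MMS holds all its arrays in the lower set of hybridization controls. It called 38 genes (0.693%), 20 higher at 6 h (0.364%) and 18 lower (0.328%). ER genes led those higher at 6 h. Of the 25 tested unfolded protein response genes 5 were called higher and 0 lower, with a median of 0.66 against -0.01 for all genes. They were Creld2 (2.63, SE 0.35, limma adjusted p = 0.000199), Manf (1.89, SE 0.37), Hspa5 (1.81, SE 0.31), Pdia4 (1.5, SE 0.18) and Hsp90b1 (1.28, SE 0.21). Creld2 was 7.55 and 5.99 at 6 h, 4.19, 4.48 and 4.37 at 12 h, 4.34 and 3.80 at 24 h and 4.09 and 3.89 at 48 h. Hspa5 was 9.46 and 8.87 at 6 h, 7.66, 7.58 and 7.60 at 12 h, 7.35 and 7.05 at 24 h and 7.09 and 7.39 at 48 h. Both 6 h arrays lay above every later array for these genes. The hybridization control means were 6.42 and 9.22 on the 6 h arrays and 7.19 on WT 48 h replicate 2. With the hybridization control mean as a covariate the comparison called 71 genes (1.29%), 33 higher (0.601%) and 38 lower (0.693%). Among them were all 38 genes of the main fit, and 8 list members were higher. Of the 38 genes 10 stayed called with the values as deposited, 11 with median centring and 6 against WT 12 h alone.

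Other genes called higher at 6 h than later included Arfgap3 (0.96), which acts on coat proteins of the Golgi, the Golgi membrane fusion genes Stx5a (0.91) and Gosr2 (0.45), and the ER genes Lrrc59 (1.03), Slc35b1 (0.87), Kdelr2 (0.65) and Sec11c (0.49). Kdelr2 encodes a receptor that returns escaped proteins to the ER and Sec11c a subunit of signal peptidase. Of the 20 genes called higher 16 had a promoter in the RefSeq table, of which 3 held the ER stress element (Creld2, Hsp90b1 and Hspa5) and 2 the TGACGTGG core (Lrrc59 and Stx5a). Plin2 was 9.95 and 10.16 at 6 h, 9.11, 9.02 and 9.05 at 12 h, 8.77 and 9.06 at 24 h and 9.69 and 9.60 at 48 h (0.85, limma adjusted p = 0.0102), lowest at 24 h and partly higher again at 48 h. The acute phase gene Serpina3n was 10.08 and 10.53 at 6 h, 10.28, 10.04 and 9.81 at 12 h, 8.58 and 9.0 at 24 h and 7.69 and 8.07 at 48 h (1.40, SE 0.24), so its 6 h and 12 h arrays overlapped.

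**Figure D4:**
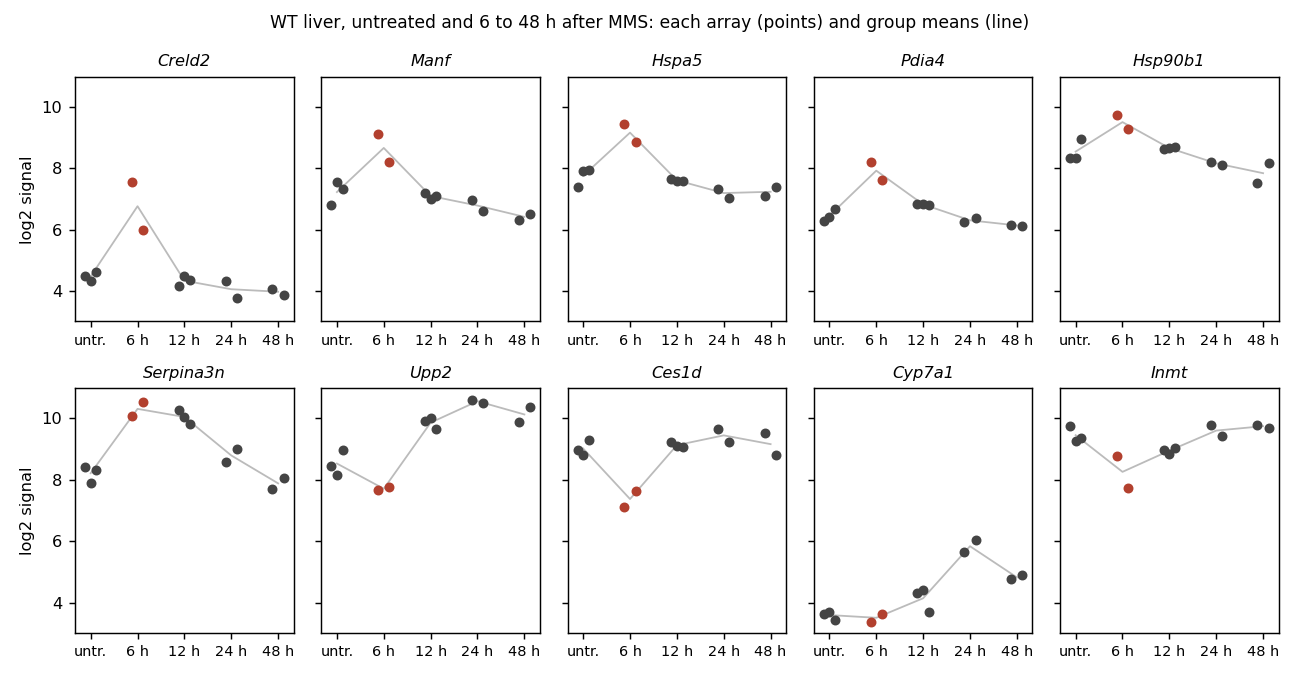
Log2 signal (y axis) on each WT array, untreated and at 6, 12, 24 and 48 h after MMS (x axis), with group means joined by a line and 6 h arrays in red. The 5 ER genes peak at 6 h, Serpina3n is high at 6 and 12 h, and Upp2, at 7.65 and 7.76 at 6 h, is lowest then.

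Upp2 had the largest fall of the 18 genes called lower at 6 h than later. This gene encodes a liver uridine phosphorylase and was 7.65 and 7.76 at 6 h, 9.90, 10.02 and 9.66 at 12 h, 10.61 and 10.50 at 24 h and 9.89 and 10.36 at 48 h (-2.47, SE 0.30, limma adjusted p = 7.06e-05). Untreated WT liver had 8.46, 8.17 and 8.96, above the 6 h arrays and below all later ones, and the difference of 6 h from untreated was not called (-0.82, limma adjusted p = 0.0987). The carboxylesterase Ces1d was 7.12 and 7.62 at 6 h, 9.22, 9.09 and 9.06 at 12 h, 9.66 and 9.23 at 24 h and 9.52 and 8.80 at 48 h (-1.87, SE 0.40, limma adjusted p = 0.0265). Cyp7a1, which sets the rate of bile acid synthesis, was 3.38 and 3.64 at 6 h, close to 3.64, 3.71 and 3.45 untreated, and 4.33, 4.41 and 3.70 at 12 h, 5.64 and 6.04 at 24 h and 4.76 and 4.89 at 48 h (-1.43, SE 0.29, limma adjusted p = 0.017). Against untreated liver the difference of Cyp7a1 at 6 h was -0.09 and was not called. Inmt (-1.17), Sardh (-1.01), which removes a methyl group from sarcosine, Gamt (-0.97) and the heme synthesis enzyme Alad (-0.87) were also called lower. Against WT 12 h alone 6 genes were called (0.109%), 3 in each direction (0.0547%), with Creld2 (2.42), Pdia4 (1.10) and Plin2 (1.00) higher and Upp2 (-2.15), Tcea3 (-0.71) and Ngef (-0.92) lower.

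The last comparison asked whether the response at 6 h differed between WT and Aag liver, as the WT difference minus the Aag difference. It called 13 genes (0.237%), 3 higher (0.0547%) and 10 lower (0.182%) in the WT response. The Aag response alone called 28 genes (0.51%), 15 higher (0.273%) and 13 lower (0.237%). Itih4 was 9.88 and 9.56 in WT 6 h against 8.16, 8.37 and 8.66 in WT untreated liver, and 8.27, 8.37 and 8.18 in Aag 6 h against 8.33, 8.57, 8.97 and 8.50 in Aag untreated liver. The responses differed by 1.64 (SE 0.27, limma adjusted p = 0.00484). Serpina10, an inhibitor of activated coagulation factor X, was 8.83 and 8.69 in WT 6 h against 7.49, 7.29 and 7.58 in WT untreated liver, and 7.53, 7.93 and 7.55 in Aag 6 h against 7.60, 7.77, 7.82 and 7.70 in Aag untreated liver (1.36, SE 0.18, limma adjusted p = 0.000908). For both genes the WT 6 h arrays lay above all arrays of the other groups named here.

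Tcea3, a transcription elongation factor, was 3.91 and 4.10 in WT 6 h against 5.07, 5.10 and 5.09 in WT untreated liver, and 4.79, 4.78 and 4.74 in Aag 6 h against 4.58, 5.0, 4.89 and 5.22 in Aag untreated liver (-0.93, SE 0.17, limma adjusted p = 0.0137). Among treated arrays alone, which lie in 1 array set, 10 genes were called (0.182%), 5 in each direction (0.0911%). WT 6 h differed from Aag 6 h by 1.44 for Itih4 (limma adjusted p = 0.000688), by 1.09 for Serpina10 (adjusted p = 0.000374) and by -0.76 for Tcea3 (adjusted p = 0.0108). These were the only 3 of the 13 genes that this direct comparison also called. Bhmt was 9.04 and 8.36 in WT 6 h against 10.67, 10.53 and 10.38 in WT untreated liver, and 9.89, 9.71 and 9.82 in Aag 6 h against 10.17, 10.12, 9.61 and 9.75 in Aag untreated liver. Its responses differed by -1.72 (SE 0.32, limma adjusted p = 0.0131), and the treated arrays by -1.11 (adjusted p = 0.0562). For Ttr the responses differed by -0.72 (adjusted p = 0.0446) and the treated arrays by -0.51 (adjusted p = 0.0876).

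**Figure D5:**
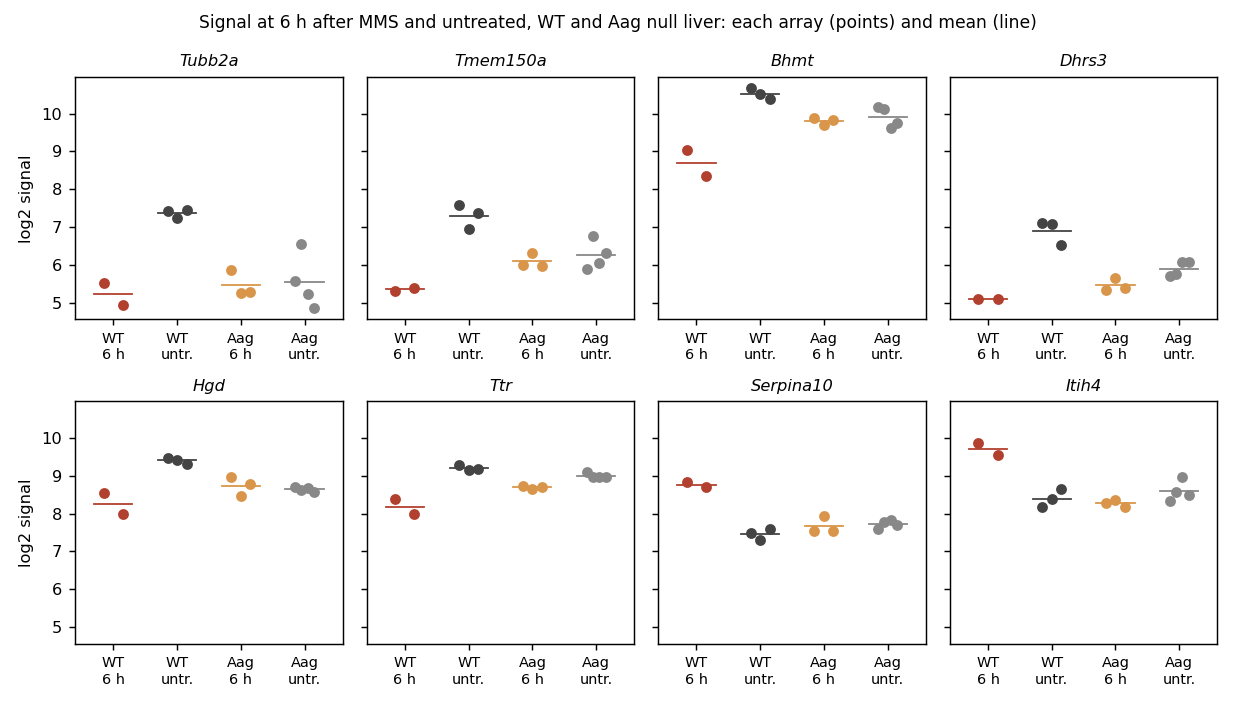
Log2 signal (y axis) of 8 genes on each array of WT 6 h, WT untreated, Aag 6 h and Aag untreated liver (x axis). Itih4 and Serpina10 are highest in WT 6 h liver, while Tubb2a, at 7.42, 7.25 and 7.45 in WT untreated liver, sets that group above the other 3.

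For the remaining genes the WT untreated arrays lay apart, and for Dhrs3 and Tmem150a the WT 6 h arrays did too. Tubb2a was 5.52 and 4.95 in WT 6 h against 7.42, 7.25 and 7.45 in WT untreated liver, and 5.86, 5.26 and 5.29 in Aag 6 h against 5.57, 6.54, 5.22 and 4.85 in Aag untreated liver (-2.06, SE 0.40, adjusted p = 0.0165). The treated arrays differed by -0.23 (adjusted p = 0.993). Dhrs3, a retinaldehyde reductase, was 5.09 and 5.09 in WT 6 h against 7.10, 7.08 and 6.51 in WT untreated liver, and 5.33, 5.65 and 5.38 in Aag 6 h against 5.71, 5.75, 6.06 and 6.07 in Aag untreated liver (-1.36, SE 0.22). Tmem150a (-1.77), Hgd (-1.24), Tubb6 (-1.29), the folate transporter Slc46a1 (-1.01) and the semaphorin receptor Plxnb2 (-0.78) were lower in the WT response and the multivitamin transporter Slc5a6 (0.86) higher.

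Key early genes of WT liver were not called in this difference. Creld2 was 7.55 and 5.99 in WT 6 h liver and 6.19, 4.23 and 4.66 in Aag 6 h liver, with responses that differed by 1.39 (limma adjusted p = 0.319). Hspa5 was 9.46 and 8.87 in WT 6 h liver and 9.08, 7.61 and 8.33 in Aag 6 h liver (0.79, limma adjusted p = 0.628). Both genes were highest on replicate 1 of their group. Serpina3n was 10.08 and 10.53 in WT 6 h liver and 8.63, 9.68 and 8.89 in Aag 6 h liver (1.35, limma adjusted p = 0.117), and Saa2 was 11.58 and 10.78 in WT 6 h liver and 6.85, 9.21 and 6.27 in Aag 6 h liver (2.89, limma adjusted p = 0.408). For Serpina3n and Saa2 both WT arrays lay above all 3 Aag arrays, while for Creld2 and Hspa5 Aag 6 h replicate 1 lay among the WT values.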

How the data were processed

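The values are log2 signals of probe sets, as deposited by the authors. No label gives their unit, which was read from their range of 0.689 to 13.16. How images were read, probes summarised and arrays scaled is not stated, and the number of arrays limits the precision. Of 12488 probe sets, 66 were controls. Quantile normalization was applied to the remaining 12422, since array medians spanned 0.215, above a limit of 0.1. Of these, 10833 had 1 gene symbol, 396 several and 1193 none in GEO's platform annotation, and 10817 gene IDs were found in the reference with 0 symbols changed. The brightest probe set stood for each of 8251 genes, and a gene was tested where 2 or more arrays had it above their median, which left 5487. Several probe sets were present for 1620 tested genes, and 845 of them held signs that differ.

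Groups were fitted with limma 3.58.1 in R 4.3.3 over all 28 arrays, with 1 mean per group, 18 residual degrees of freedom and a trend of variance with signal. Benjamini-Hochberg adjustment was made over all tested genes of a comparison. The code was tested on simulated data. Python 3.11.15 with matplotlib 3.10.9 drew the figures.

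Genes to follow were Mpg, the 15 largest rises and falls against untreated liver without overlap, and up to 6 called members of lists with at least 3 calls. A set of stress and repair genes was followed whatever their values. Up to 10 called genes in each direction against later WT liver and up to 8 against the Aag response were added. So were the 10 genes most apart in each direction on the WT 6 h arrays. Only some of these genes are printed. Values are not given, for example, for the large falls of Cyp2c70, Lat2, Reg2, Pigk and Ssr4, or for Myc, Jun, Fos and Hspa1b. Other list members and the genes called in the 3 further fits were named after their values were seen. Members and lists were chosen with earlier results of these data known.

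Alternatives were no scaling, median centring, other brightness filters, the mean of probe sets, a replicate block, array weights, only the groups compared, array set as a term, Aag untreated arrays of the same set as controls, and each array left out. The covariate of 9 hybridization controls, treated arrays alone, Aag arrays of the lower set alone and 12 h alone were added after seeing the data. The array set term is estimated from Aag untreated arrays alone, the only group in both sets.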

Additional observations from a re-analysis of the deposited data

Results flagged for a closer look

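The response to MMS at 6 h differed between WT and Aag liver, by the test of that difference in limma, for 13 genes. Log2 WT response minus Aag response was -2.06 for Tubb2a, -1.77 for Tmem150a, -1.72 for Bhmt, -1.36 for Dhrs3 and -1.29 for Tubb6. It was -1.24 for Hgd, -1.01 for Slc46a1, -0.93 for Tcea3, -0.78 for Plxnb2 and -0.72 for Ttr. In the other direction it was 0.86 for Slc5a6, 1.36 for Serpina10 and 1.64 for Itih4. All 3 WT untreated arrays lie in the high set of hybridization controls while the Aag untreated arrays lie in both sets, and the part of this in the differences was not tested.

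An Aag untreated array stood far from the other 3 for Ttr, at 9.11 against 8.96 on each of the others. It is replicate 1, and chance gives such a gap in about 1 in 20 groups.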

How the results depend on the processing

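The 893 calls of WT 6 h against untreated liver became 0 with array weights, which gave the 2 WT 6 h arrays the lowest weight of 0.128 (323 at unadjusted p under 0.05 in limma), and 21 with only the groups compared. They became 114 with array set as a term, 42 against Aag untreated arrays of that set and 290 with the hybridization covariate. The 38 calls against later WT liver became 11 as deposited, 12 with median centring, 0 with array weights (25 at unadjusted p under 0.05), 9 with only the groups compared, 67 with array set, 71 with the covariate and 6 against 12 h alone. The 13 differences between genotypes became 6 with median centring, 24 with no filter, 0 with array weights (76 at unadjusted p under 0.05), 0 with only the groups compared (174), 34 with array set, 52 with the covariate and 162 with Aag untreated arrays of the lower set only. With the replicate number as a replicate block the counts were 742, 26 and 13. Deviations of same-numbered WT arrays correlated at 0.224 and 0.357, and 2 such pairs were not taken as a pairing. Leaving out 1 array gave 666 to 1543 calls against untreated liver, the highest without WT 6 h replicate 2 (1543 without it, 1276 without replicate 1), though only 622 and 524 of the 893 remained. Against later WT liver leaving out 1 array gave 25 to 596, with 596 without WT 6 h replicate 1, 229 without replicate 2 and 25 without WT 24 h replicate 1. Between genotypes it gave 9 to 102, with 102 without WT 6 h replicate 1, 64 without replicate 2, 23 without WT untreated replicate 2 and 21 without Aag untreated replicate 4. Some of these fits also hold fewer samples or groups, and the cause of the changes in count was not tested. Directions of named genes against untreated liver turned round in 18 cases. Against Aag untreated arrays of the same set the differences were -0.23 for Pip4k2c, 0.11 for Keap1, 0.45 for G6pc, -0.0603 for Tdo2, 0.12 for Pcx, 0.13 for Cry1, -0.19 for Slc38a4, 0.0062 for Cdc25a, 0.25 for Tubb6 and 0.0266 for Tpm1. With the covariate they were 0.0268 for A4galt, -0.13 for Sel1l, -0.20 for Ugdh, -0.081 for Hsd17b7, 0.10 for Tm7sf2 and 0.15 for Eef1b2, and with array set -0.0608 for Hsd17b7 and 0.26 for Ces1d. No named gene turned round against later WT liver or between genotypes in the settings run. The values were already log2, so no pseudocount was run. Dim genes such as Mpg and Polb had signals too low for a firm comparison.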
